A study of Mus musculus with 111 samples.

Results

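Transcripts of 8 cathepsins and of legumain were followed in mouse gastrocnemius, the large calf muscle, during disuse. The 9 genes were Ctsl, Ctsb, Ctsd, Ctsk, Ctss, Ctsz, Ctsc, Ctsh and Lgmn, out of 18194 genes with a probe set on the array. They were chosen by name, and the platform annotation gives each as the single gene of a probe set. Further cathepsin genes of the array were not members and are described apart, below. All 9 passed the filter on low signals, as did 16029 genes in all. Where a gene had several probe sets, the probe set with the highest mean signal stood for it. The values are linear signal intensities of 111 Affymetrix arrays, each hybridised with the RNA of 1 muscle, from 70 male C57BL/6 mice that were 8 weeks old.

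In the casting cohort the right hindlimb was immobilised in a cast and the untreated left leg was the control. At days 2, 7 and 14 there were 10, 7 and 9 cast legs and 9, 8 and 9 control legs. In the tenotomy cohort, in which an Achilles tendon was cut, there were 5, 7 and 5 left legs labelled tenotomy and 5, 7 and 5 right legs labelled control. Sham-operated mice, whose tendon was exposed and handled but not cut, gave 3, 7 and 8 right muscles, and 7 right muscles came from naive mice. The tenotomy mice were anaesthetised with ether and then ketamine-xylazine, per the series' description, and the labels name no genetic change in any group. For 25 mice of the casting cohort and 16 of the tenotomy cohort the arrays covered both hindlimbs.

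The sources conflict on the operated leg of the tenotomy mice. The series' description has the right tendon cut, but in the sample labels it is the left muscles that carry the treatment tenotomy, while their right counterparts are marked as control. The labels were kept, and the legs are called "left, labelled tenotomy" and "right, labelled control" throughout. Each value below is tied to its leg side. In the sham group at day 2 the treatment entry was empty and the group was taken from the sample title.

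Skeletal muscle markers were bright on the arrays, with a signal of Acta1 (skeletal actin) of at least 4007 in every muscle and of at least 15600 in naive muscles. One cast leg at day 2 (replicate 10) and one at day 7 (replicate 1) stood apart in several cathepsins, and results that rest on them are given with and without both legs of the mouse concerned. The 3' to 5' ratio of beta-actin probe sets, a sign of RNA quality and labelling, differed between groups. Its mean log2 value was -0.02, 0.11 and 0.08 in right legs labelled control at days 2, 7 and 14, -0.83, -0.38 and -0.58 in left legs labelled tenotomy, -1.31, -1.27 and -1.12 in sham muscles and -1.19 in naive muscles. In the casting cohort it was -0.67, -0.66 and -0.66 in cast legs and -0.73, -0.49 and -0.33 in control legs. The same ratio of Gapdh stayed between -0.29 and -0.17 in all groups. The part of these differences in the results below was not tested.

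Cathepsins are proteases of the lysosome, the acidic compartment in which a cell degrades protein delivered by autophagy and endocytosis. Most are cysteine proteases of the papain family, Ctsd is an aspartic protease, and legumain is an asparaginyl endopeptidase that also processes other cathepsins to their mature forms. In wasting rodent muscle, cathepsin L belongs to the genes known to be induced together with the ubiquitin ligases Fbxo32 and Trim63. Macrophages and other phagocytes are rich in lysosomes, and cathepsin S is best known from antigen-presenting cells, where it cuts the invariant chain of MHC class II. Cathepsin K is the collagenase with which osteoclasts dissolve bone matrix, and fibroblasts express it too.

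The promoters of members with different patterns are shown first, because the results below separate Ctsd from the phagocyte-type members Ctss and Ctsc, and Ctsk from its neighbour Ctss. RefSeq windows on build GRCm38.p6 were found for 7 of the 9 genes (8 windows, 2 of them for Lgmn), and Ctsb and Ctsh had none in the table used here. The window of Ctsl begins from a start 252 bases inside the annotated gene and is therefore not shown. The stretches shown are chr7:142387818-142388077 for Ctsd, on the minus strand, and chr3:95526536-95526795 for Ctss, chr7:88277835-88278033 for Ctsc and chr3:95498960-95499219 for Ctsk, on the plus strand. Each sequence below runs 5' to 3' along the gene's strand, to the first 10 bases of the annotated gene. It begins 250 bases before the start that the table gives, which in Ctsc lies 61 bases inside the gene. Capitals mark CACGTG, the E-box at the core of the CLEAR element bound by TFEB and related factors, or ACTTCCTC, the reverse complement of GAGGAAGT, a core bound by PU.1.
Ctsd: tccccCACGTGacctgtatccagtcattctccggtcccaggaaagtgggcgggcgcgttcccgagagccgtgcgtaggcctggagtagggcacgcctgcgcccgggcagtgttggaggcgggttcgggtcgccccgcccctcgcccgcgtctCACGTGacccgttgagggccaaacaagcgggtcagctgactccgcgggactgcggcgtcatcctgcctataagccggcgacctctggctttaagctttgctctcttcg
Ctss: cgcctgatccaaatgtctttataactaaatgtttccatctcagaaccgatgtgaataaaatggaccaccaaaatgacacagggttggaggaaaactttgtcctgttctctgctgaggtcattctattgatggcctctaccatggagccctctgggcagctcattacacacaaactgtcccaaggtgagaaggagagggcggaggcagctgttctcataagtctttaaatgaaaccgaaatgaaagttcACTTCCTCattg
Ctsc: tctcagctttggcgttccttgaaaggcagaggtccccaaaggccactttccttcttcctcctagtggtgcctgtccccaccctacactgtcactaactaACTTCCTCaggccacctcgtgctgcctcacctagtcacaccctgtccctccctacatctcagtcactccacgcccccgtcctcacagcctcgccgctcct
Ctsk: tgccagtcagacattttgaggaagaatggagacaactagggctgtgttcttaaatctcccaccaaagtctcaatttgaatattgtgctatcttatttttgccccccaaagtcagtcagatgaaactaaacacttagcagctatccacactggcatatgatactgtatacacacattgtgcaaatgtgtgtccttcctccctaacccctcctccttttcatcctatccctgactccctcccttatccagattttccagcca

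Both strands of the full windows of 300 bases (250 before the start and the first 50 from it on) were searched for 4 cores. CACGTG, which reads the same on both strands, began 245 and 98 bases before the 5' end of the annotated Ctsd gene. In Ctsl and in one of the Lgmn windows, which start inside the annotated genes, it lay within the gene, 16 and 587 bases past its 5' end, and 7.15% of all 32851 windows held it. GAGGAAGT lay on the opposite strand in Ctss, beginning 2 bases before the 5' end of the gene, and in Ctsc, beginning 90 bases before it, and 3.2% of all windows held it. It was absent from the windows of Lgmn and Ctsz, not shown here, whose group means also went with Ctss in the results below. Nor was it in those of Ctsl, Ctsd and Ctsk. The forkhead core GTAAACA and the AP-1 core TGACTCA, held by 3.65% and 5.2% of all windows, were in no member's window, and no motif of the 4 overlapped another in these windows. Ctsk and Ctss lie side by side on chromosome 3, with 1 annotated gene, a long noncoding RNA, between them. A match describes letters in a window and says nothing of binding.

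Signals of Ctsl and Ctsd varied little over the 16 groups and those of Ctss, Ctsk and Lgmn varied widely. On the log2 scale of signal plus 3.98, the span between the highest and the lowest group mean was 1.13 for Ctsl, 1.19 for Ctsd, 1.48 for Ctsb, 1.78 for Ctsz, 2.05 for Ctsc, 2.73 for Ctsh, 3.27 for Lgmn and for Ctsk, and 4.0 for Ctss. The highest mean was in the right legs labelled control at day 2 for 7 genes (Ctsb, Ctsd, Ctss, Ctsz, Ctsc, Ctsh and Lgmn). Ctsl was highest in cast legs at day 2 and Ctsk in right legs labelled control at day 14. Signals of different genes come from different probe sets and are not compared as levels.

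Neighbours in the order of the 16 group means mostly lay within their spread. Of 15 steps per gene, between 1 and 3 exceeded the larger SD of the 2 groups. For Ctsl this was only the step of cast day 2 above cast day 7, a gap of 0.28 against an SD of 0.15. For Ctsk it was only the step of right legs labelled control at day 7 above cast legs at day 14, a gap of 1.30 against an SD of 0.61. The top step of Ctss, right legs labelled control at day 2 above day 7, was 1.83 against an SD of 0.49, and that of Ctsb was 0.79 against 0.21.

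**Figure D1:**
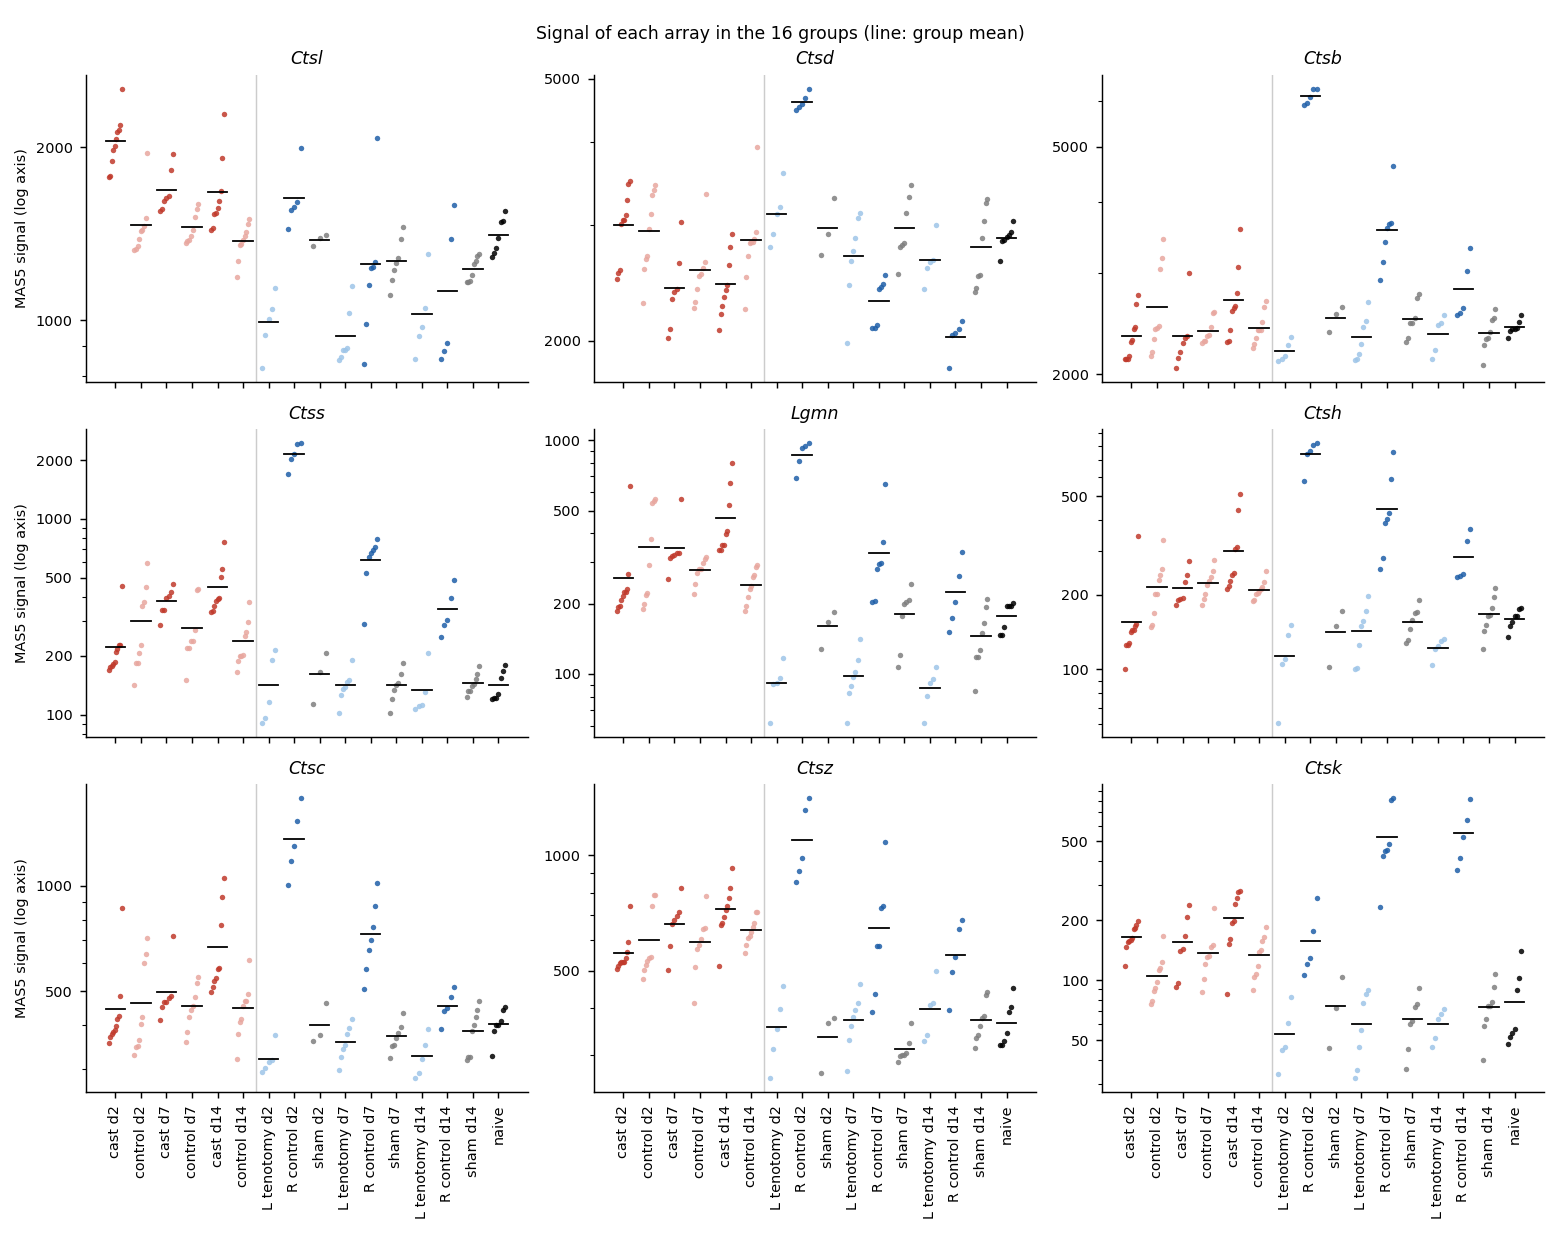
Signal of each member gene in every array of the 16 groups, on a logarithmic axis in MAS5 signal units; each point is 1 muscle and each line a group mean. Ctsl is highest in cast legs at day 2 (mean 2050), Ctss and Lgmn in right legs labelled control at day 2 (2144 and 868.5), and Ctsk in right legs labelled control at days 7 and 14 (524.6 and 551.2).

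The first question was which of these proteases changed when a leg was immobilised. At day 2 of casting Ctsl, an endopeptidase, rose, and so did Ctsk, whereas Ctsh, an aminopeptidase, fell. At day 7 no member passed the test. At day 14 Ctsl and Ctsk rose, now with Ctss, Lgmn, Ctsc and Ctsh, and Ctsd fell slightly. Differences are cast minus control leg on the log2 scale, tested with limma, with p-values adjusted by Benjamini and Hochberg's method over all genes tested and called under 0.05.

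Ctsl had a lowest, median and highest signal of 1774, 2042 and 2533 in cast legs at day 2, against 1323, 1430 and 1956 in control legs. Means were 2050 ± 223 in cast legs (SD, n = 10) and 1463 ± 195 in control legs (SD, n = 9), a 1.4-fold difference (log2 0.49, SE 0.08, adjusted p = 9.49e-07). The cast leg was the higher one in 9 of 9 mice with both legs, and the ranges overlapped through 1 control leg at 1956. At day 7 the difference was 0.21 (SE 0.09, adjusted p = 0.17) with the cast leg higher in 7 of 7 mice, and it passed with array weights or with only the groups compared in the fit (adjusted p = 0.0147 and 0.0367). At day 14 it was 0.27 (SE 0.08, adjusted p = 0.0191) with the cast leg higher in 9 of 9. Averaged with the gene's second, dim probe set (a mean signal of 28.24 over all arrays, against 1409), the day 14 value no longer passed (adjusted p = 0.939). Fbxo32 rose by 1.45 and 0.88 at days 2 and 7, and Trim63 rose by 0.93 at day 2. Later values, 0.38 for Fbxo32 at day 14 and 0.16 and 0.03 for Trim63 at days 7 and 14, did not pass.

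Ctsk had a median signal of 161.2 (117.6 to 198.9) in cast legs at day 2 and of 98.24 (76.05 to 167.6) in control legs. The difference was 0.65 (SE 0.19, adjusted p = 0.00616), with the cast leg higher in 8 of 9 mice. At day 7 it was 0.15 (adjusted p = 0.793). At day 14 it was 0.56 (SE 0.20, adjusted p = 0.0423), which did not pass in 4 alternative settings (adjusted p = 0.0505 to 0.0976). The mean at day 14 was 206 ± 65.9 in cast legs and 134.5 ± 32.0 in control legs (SD, n = 9 each), and the ranges overlapped.

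Ctss and Lgmn rose late. Ctss ran from 335.6 through a median of 391.6 to 762.5 in cast legs at day 14, and from 164.6 through 200.6 to 376.8 in control legs. The 9 cast legs were each above the other leg of the same mouse (log2 0.89, SE 0.18, adjusted p = 0.000124, 1.88-fold), with some overlap between mice. Lgmn ran from 339.5 through 396.3 to 800.8 in cast legs at day 14, and from 186.3 through 236.8 to 291.3 in control legs. Its groups did not overlap (log2 0.89, SE 0.18, adjusted p = 0.000126, 1.93-fold).

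At day 2 the same genes had values on the other side. Ctss was at -0.35 (adjusted p = 0.137) and Lgmn at -0.40 (adjusted p = 0.0762), and Ctsh fell by 0.49 (SE 0.14, adjusted p = 0.00535), with the cast leg lower in 8 of 9 mice. Without both legs of the mouse whose cast leg stood apart at day 2, Ctsh was at -0.60 (adjusted p = 0.000406), Lgmn passed at -0.53 (adjusted p = 0.0135), Ctsb passed at -0.19 (adjusted p = 0.0301) and Ctss remained outside at -0.41 (adjusted p = 0.0739). At day 7 Ctss was at 0.52 (adjusted p = 0.0793) and, without both legs of the mouse whose cast leg stood apart there, at 0.36 (adjusted p = 0.319). That mouse had the highest Ctss signal of the cast legs (465.5) and the lowest of the control legs (149.7). The change of the leg difference between day 2 and day 14 passed its own test for Lgmn (1.29, adjusted p = 6.78e-05), Ctss (1.24, adjusted p = 0.00013), Ctsh (0.94), Ctsc (0.59) and Ctsb (0.30, adjusted p = 0.0218). The call of Ctsb was lost with the animal as a fixed block, as the mean of probe sets and in a fit of these groups alone (adjusted p = 0.082 to 0.125), and that of Ctsc in a fit of these groups alone (adjusted p = 0.0574). The change did not pass for Ctsl (-0.22, adjusted p = 0.237), Ctsd, Ctsk and Ctsz. Of all genes, 14.3% passed it.

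Of the exopeptidases, Ctsc, a dipeptidyl peptidase that activates the serine proteases of immune cell granules, rose by 0.55 at day 14 (SE 0.12, adjusted p = 0.000675, 8 of 9 mice). Ctsh rose by 0.45 at day 14 (SE 0.15, adjusted p = 0.0256, 8 of 9 mice). The carboxypeptidase gene Ctsz was at -0.10, 0.16 and 0.17 at days 2, 7 and 14, and Ctsb, an endo- and exopeptidase, at -0.15, -0.04 and 0.15, none of them called. Ctsd was at 0.04 and -0.09 at days 2 and 7 and fell by 0.21 at day 14 (SE 0.08, adjusted p = 0.0456, 7 of 9 mice), which did not pass in 5 alternative settings (adjusted p = 0.0544 to 0.167).

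Counted over the members, 2 were higher and 1 was lower in cast legs at day 2, where 11% of all genes were higher and 13.3% lower. At day 7 limma called 0 of 9, with 2 members under an unadjusted p of 0.05 (Ctsl and Ctss), where 8.77% of all genes were called. At day 14, 6 were higher and 1 was lower, against 7.17% and 6.04% of all genes. The groups did not overlap for 0, 0 and 1 member at the 3 days, against 2.28%, 0.736% and 0.824% of all genes. The median difference over members was -0.10, 0.15 and 0.45, against -0.03, 0.01 and 0.04 over all genes.

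**Figure D2:**
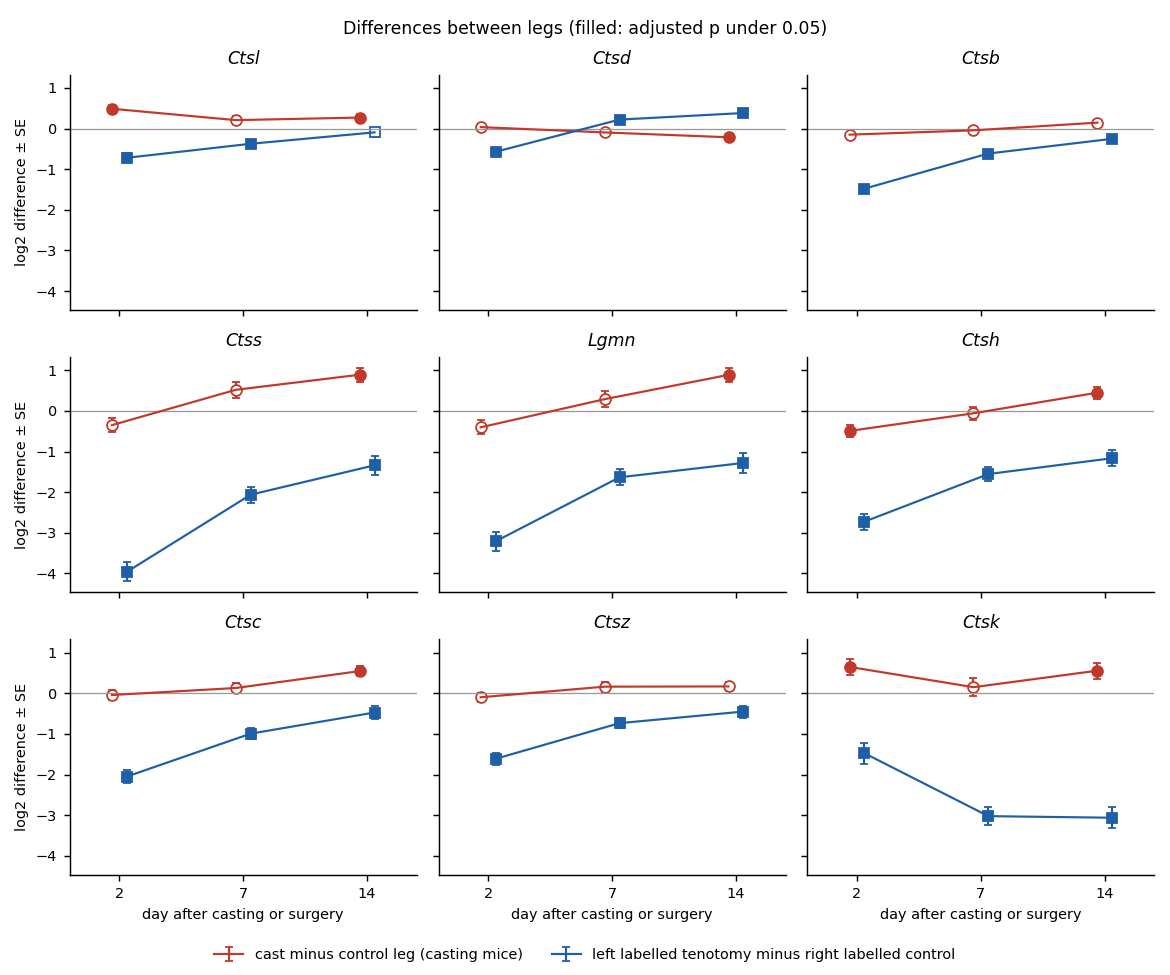
Difference between legs of each member gene at days 2, 7 and 14, as log2 ± SE, for cast minus control legs and for left legs labelled tenotomy minus right legs labelled control; filled points have an adjusted p under 0.05. In casting Ctss and Lgmn run from -0.35 and -0.40 at day 2 to 0.89 each at day 14, and in the tenotomy mice Ctss runs from -3.96 to -1.34 while Ctsk runs from -1.48 to -3.06.

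In the tenotomy mice every member was lower in the left legs labelled tenotomy than in the right legs labelled control at day 2. Ctss, Lgmn and Ctsh had the largest differences of the 9. Toward day 14 the differences of these genes shrank, that of Ctsk grew and that of Ctsd changed sign.

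Ctss at day 2 had signals of 214.6, 115.9, 95.53, 190.7 and 90.12 in left legs labelled tenotomy, against 2429, 2027, 2142, 1703 and 2421 in right legs labelled control. The right legs all lay above the left legs (log2 -3.96, SE 0.24, adjusted p = 1.2e-27), and 9 genes of all those tested had a larger difference. Lgmn had 117.4, 90.62, 61.47, 95.73 and 91.74 in left legs, against 925.8, 687.5, 814.8, 946.2 and 968 in right legs (log2 -3.21, SE 0.24, adjusted p = 3.95e-22). Ctsh had 137.1, 104.8, 60.4, 151.4 and 110.5 in left legs, against 763.9, 818.5, 807.9, 574.9 and 745.4 in right legs (log2 -2.73, SE 0.20, adjusted p = 1.05e-22). None of these groups overlapped.

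Ctsb, among the most general of the lysosomal proteases, had 2155, 2250, 2129, 2324 and 2108 in left legs labelled tenotomy at day 2, against 5959, 6096, 6317, 6305 and 5912 in right legs labelled control. The signals lay close together within each leg and the difference was -1.48 (SE 0.09, adjusted p = 1.04e-26). Ctsd had 3114, 2777, 3195, 3588 and 2908 in left legs, against 4478, 4672, 4830, 4576 and 4521 in right legs (log2 -0.57, SE 0.10, adjusted p = 1.49e-06). Ctsl had 943.7, 823.9, 1003, 1136 and 1047 in left legs, against 1572, 1607, 1992, 1442 and 1555 in right legs (log2 -0.72, SE 0.11, adjusted p = 6.35e-08). In these genes too the 2 legs did not overlap.

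Ctsk had its largest leg difference at day 14. Signals were 71.68, 51.59, 67.76, 64.15 and 46.19 in left legs labelled tenotomy, against 413.1, 528, 812.6, 642.9 and 359.6 in right legs labelled control (log2 -3.06, SE 0.26, adjusted p = 7.62e-17). Every right leg was thus far above every left leg. At day 7 the difference was -3.02 (SE 0.22, adjusted p = 8.44e-22) and at day 2 it was -1.48 (SE 0.26, adjusted p = 1.37e-06). By size it stood in place 16 of all genes at day 7 and in place 12 at day 14.

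Ctss differed by -2.06 at day 7 and -1.34 at day 14 (adjusted p = 2.38e-15 and 5.63e-06), Lgmn by -1.63 and -1.28, and Ctsh by -1.55 and -1.16. Ctsc differed by -2.05, -0.99 and -0.47 over the 3 days, Ctsz by -1.61, -0.74 and -0.45, and Ctsb by -1.48, -0.61 and -0.25. These all passed. At day 14 those of Ctsb, Ctsc and Ctsz did not pass with the animal as a fixed block or without right leg replicate 3 or 4. Nor did Ctsb pass without left leg replicate 1 or 3, Ctsc without 2 or 5, Ctsz without 4 or 5, or Ctsb and Ctsc as the mean of probe sets (adjusted p = 0.0517 to 0.19 for all these losses). Ctsl was lower in left legs at day 7 (-0.37, adjusted p = 0.000894; 0.319 as the mean of its probe sets), and at day 14 it did not pass (-0.09, adjusted p = 0.624).

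Ctsd turned. It was lower in left legs at day 2 and higher there at day 7 (0.22, SE 0.09, adjusted p = 0.0369) and day 14 (0.38, SE 0.10, adjusted p = 0.0027). Its signals at day 14 were 2394, 2998, 2631, 2649 and 2574 in left legs labelled tenotomy, against 2040, 1814, 2086, 2057 and 2145 in right legs labelled control, with no overlap. The day 7 value did not pass in 3 alternative settings (adjusted p = 0.0537 to 0.488), and with quantile normalization the day 14 value was 0.19 (adjusted p = 0.099). Each member's change of the leg difference from day 2 to day 14 passed its test, 8 upward, between 0.62 (Ctsl) and 2.62 (Ctss), and Ctsk downward by 1.59, where 8.15% of all genes passed. That of Ctsl did not pass as the mean of its probe sets (0.44, adjusted p = 0.104).

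At day 2, 9 of 9 members were lower in left legs labelled tenotomy, where 20.8% of all genes were lower and 15.9% higher. At day 7, 8 were lower and 1 higher, against 18.3% and 14.6%, and at day 14, 7 were lower and 1 higher, against 13.5% and 9.71%. The legs did not overlap for 9, 6 and 6 members, against 23.1%, 6.46% and 14.7% of all genes. Median differences over members were -1.61, -0.99 and -0.47, against -0.03, 0.00 and -0.02 over all genes.

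The legs of the tenotomy mice were then set against sham muscles. These values use the same right and left legs as the comparison of legs and are not independent of it. Sham muscles were right muscles, so that right legs labelled control share the side with them, whereas in left legs side and group cannot be told apart.

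In right legs labelled control at day 2, 8 of 9 members were higher than in sham muscles and none was lower, where 19.6% of all genes were higher and 15.5% lower. Ctss had 2144 ± 303 in right legs (SD, n = 5) and 161.8 ± 46.4 in sham muscles (SD, n = 3), 13.3-fold more (log2 3.72, SE 0.29, adjusted p = 2.14e-20). Lgmn was 5.43-fold higher (2.42, SE 0.29, adjusted p = 9.64e-12), Ctsh 5.25-fold, Ctsc 3.41-fold, Ctsz 3.26-fold, Ctsb 2.44-fold and Ctsd 1.56-fold. Another bright Ctsb probe set was at 1.61, 0.50 and -0.03 at days 2, 7 and 14, against 1.28, 0.51 and 0.25 with the one used. In RNA of whole muscle, more cells of a type and more RNA per cell cannot be told apart. Ctsl was the member that did not pass (0.23, SE 0.14, adjusted p = 0.193), although its 5 right legs (1442 to 1992) all lay above the 3 sham muscles (1345 to 1409), and with quantile normalization it passed (0.41, adjusted p = 0.019).

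Ctsk at day 2 was 2.13-fold higher in right legs labelled control (1.05, SE 0.32, adjusted p = 0.0055), which did not pass without sham replicate 3 (adjusted p = 0.106). At day 7 it was 8.25-fold higher (2.91, SE 0.23, adjusted p = 7.57e-20) and at day 14 7.5-fold (2.83, SE 0.25, adjusted p = 2.42e-17). Means at day 7 were 524.6 ± 214 in right legs and 63.6 ± 18.9 in sham muscles (SD, n = 7 each). The 7 right legs, from 233.0 to 821.0, all lay above the sham muscles, from 35.91 to 91.41. By size the difference was in place 18 at day 7 and in place 7 at day 14.

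At day 7, 7 members were higher and 1 lower in right legs labelled control, against 23.5% and 17.7% of all genes, and at day 14, 6 were higher and 1 lower, against 20.6% and 15.3%. Ctss was 4.39-fold and 2.38-fold higher at these days, and Ctsh 2.85-fold and 1.7-fold. The member that was lower was Ctsd at both days (-0.37, SE 0.09, adjusted p = 0.00039, and -0.44, SE 0.10, adjusted p = 8.63e-05). Its means were 2293 ± 187 in right legs and 2970 ± 332 in sham muscles at day 7 (SD, n = 7 each), and 2028 ± 126 and 2777 ± 376 at day 14 (SD, n = 5 and 8), without overlap. With quantile normalization the day 7 value was -0.16 (adjusted p = 0.0812) and the day 14 value -0.28 (adjusted p = 0.00233).

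The groups did not overlap for 9, 7 and 4 members at days 2, 7 and 14, against 32.2%, 12.1% and 16.8% of all genes, and the median difference was 1.68, 0.94 and 0.54, against 0.04, 0.07 and 0.07. At day 14 the calls of Ctsb (0.25, adjusted p = 0.0168) and Lgmn (0.60, adjusted p = 0.0256) did not pass without right leg replicate 3 or without replicate 4 (adjusted p = 0.0575 to 0.108 for Ctsb and 0.0777 to 0.137 for Lgmn). These 2 legs were the highest of the 5 for Ctsl (1589 and 1385, against 856.5 to 911.9 in the other right legs), Ctss, Lgmn and Ctsk. Ctsl in right legs was at -0.06 and -0.17 at days 7 and 14, and neither passed, although the day 14 value did without right leg replicate 3 and as the mean of its probe sets (adjusted p = 0.0154 to 0.0245).

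**Figure D3:**
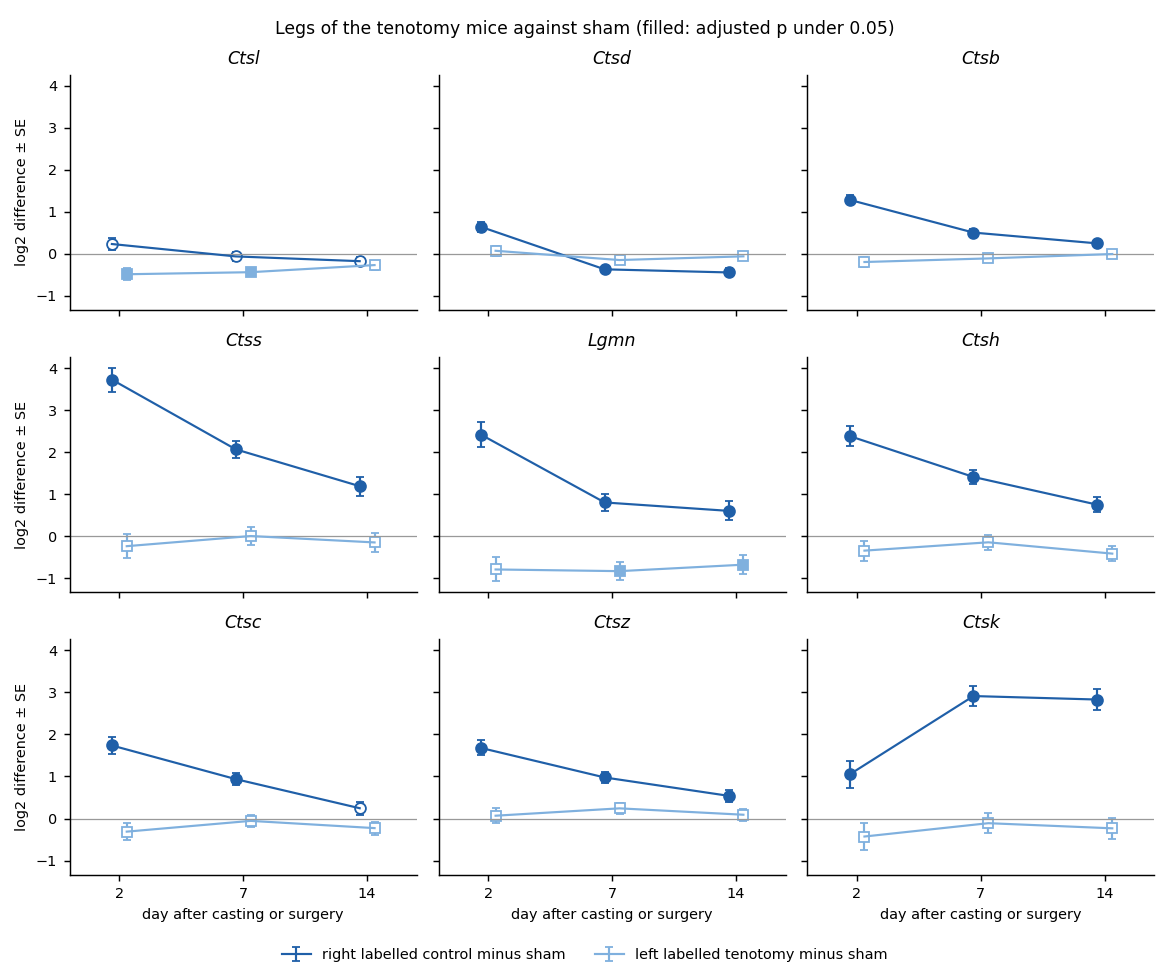
Difference of each member gene from sham muscles at days 2, 7 and 14, as log2 ± SE, for right legs labelled control and for left legs labelled tenotomy; filled points have an adjusted p under 0.05. The right legs reach 3.72 for Ctss at day 2 and 2.91 for Ctsk at day 7, whereas the left legs lie between -0.83 and 0.24.

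Against sham muscles, left legs labelled tenotomy had called differences in 2 members. Ctsl was lower at day 2 (990.7 ± 117 in left legs, n = 5, and 1382 ± 33.0 in sham muscles, n = 3; SD; log2 -0.49, SE 0.14, adjusted p = 0.0112) and at day 7 (-0.44, SE 0.10, adjusted p = 0.000566). At day 14 it was at -0.27 (adjusted p = 0.0609), but passed without left leg replicate 2 or when the fit held just these groups (adjusted p = 0.0218 to 0.0346). Without sham replicate 2 the day 2 value did not pass (adjusted p = 0.0542), and as the mean of both probe sets neither day passed (adjusted p = 0.408 and 0.435). Lgmn at day 2 was at -0.79 (adjusted p = 0.0598), and it passed without left leg replicate 1 and in a fit of these groups alone (adjusted p = 0.0226 to 0.0442). It was lower at day 7 (98.41 ± 25.2 in left legs and 179.9 ± 49.2 in sham muscles, SD, n = 7 each; -0.83, SE 0.21, adjusted p = 0.00187) and at day 14 (-0.68, adjusted p = 0.0193), the last not without left leg replicate 1 (adjusted p = 0.0855). At the 3 days 1, 2 and 1 members were lower, against 5.66%, 9.45% and 10.7% of all genes, and none was higher, against 4.34%, 9.7% and 10%. The groups did not overlap for 3, 0 and 0 members, those at day 2 being Ctsl, Ctsb and Lgmn, against 15.4%, 4.98% and 7.91% of all genes.

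No member passed the test between sham and naive muscles. Limma called 0 of 9 at each day, with 0, 0 and 1 under an unadjusted p of 0.05 (Ctsl at day 14, -0.20), where 0%, 0.63% and 2.26% of all genes were called. The members' differences lay between -0.32 and 0.17.

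The control legs of cast mice were not like naive muscle in every member. Ctss was higher there at days 2, 7 and 14 by 0.94, 0.88 and 0.71 (adjusted p = 8.19e-05, 0.000442 and 0.00344), and Ctsz by 0.71, 0.69 and 0.81. Ctss averaged 302.2 ± 152, 275.9 ± 105 and 238.1 ± 67.1 in these control legs (SD, n = 9, 8 and 9) and 141.3 ± 24.6 in naive muscles (SD, n = 7). Lgmn was higher at days 2 and 7 (0.84 and 0.64), Ctsk at days 7 and 14 (0.84 and 0.83), and Ctsh at day 7 (0.46). In all, 3, 5 and 3 members were higher, against 16.6%, 13.6% and 16.1% of all genes, and none was lower, against 11.3%, 9.44% and 11.4%. The groups did not overlap for 1, 2 and 2 members, against 8.09%, 7.66% and 9.15%. Ctsl was at 0.05, 0.05 and -0.04, Ctsb between -0.02 and 0.09 and Ctsd between -0.17 and 0.02, none of them called. With quantile normalization Ctsd was higher and passed at days 2 and 14 (adjusted p = 0.00157 and 0.00325), Ctsb passed at day 2 (adjusted p = 0.0035), and Ctsh at day 7 did not (adjusted p = 0.076). With the deposited scaling, Acta1 was at -0.805, -0.993 and -1.098 at days 2, 7 and 14 in this comparison. The fibre gene Ckm was at -0.851, -1.048 and -1.172, and all these values were called. Their part in the members' values was not tested. The naive muscles were right muscles of another cohort and the control legs were left, so that leg side, cohort and casting of the other leg cannot be told apart.

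The 2 disuse models were set against each other with the right minus left difference, whose value does not depend on the labels of the tenotomy legs. Its reading does. By the labels it sets control minus tenotomy legs against cast minus control legs. By the series' description, with the right tendon cut, it sets operated minus unoperated legs against cast minus control legs. A larger value is therefore not read as a stronger response to tenotomy. The right minus left difference was larger in tenotomy mice than in cast mice for 8 of 9 members at day 2, 7 at day 7 and 1 at day 14, and smaller for none. Of all genes 19.8%, 11% and 5.16% were larger and 14.3%, 7.8% and 2.98% smaller. The excess was 4.31 for Ctss and 3.61 for Lgmn at day 2 (adjusted p = 2.18e-23 and 1.51e-19) and 1.54 and 1.34 at day 7. At day 7 the call of Ctsc was lost as the mean of probe sets (adjusted p = 0.142) and that of Ctsz when the fit held just these groups (adjusted p = 0.0555). For Ctsk it was 0.83, 2.87 and 2.51 at days 2, 7 and 14, and the day 14 value was the one that passed there (adjusted p = 8.8e-09). The day 2 value of Ctsk (adjusted p = 0.0373) did not pass in 11 alternative settings, 5 of which left out 1 muscle, left leg replicate 2, 3 or 5 or right leg replicate 2 or 3 (adjusted p = 0.0505 to 0.143). Ctsl did not pass at any day (0.23, 0.17 and -0.18, adjusted p = 0.21 to 0.501).

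The members fell into patterns when their 16 group means were correlated on the log2 scale. The points are group means that share arrays and scaling, and the coefficients are descriptions. Spearman's rho is given with Pearson's r where they part. Ctss went with Ctsc (r = 0.97), Ctsh (0.96), Lgmn (0.90) and Ctsz (0.90), and with Ctsb at r = 0.89 but rho = 0.63. Around the group means, over 111 arrays, Ctss had r = 0.68 with Ctsc, 0.70 with Ctsh and 0.66 with Lgmn. Ctsl had r = 0.43 with Ctss and 0.72 with Lgmn over group means (0.33 and 0.40 within groups), with rho = 0.56 and 0.78. Ctsd had r = 0.30 but rho = -0.34 with Ctss, so that the sign depends on the measure, and -0.44 by both with Ctsk. Ctsk had r = 0.63 and rho = 0.87 with Ctss.

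**Figure D4:**
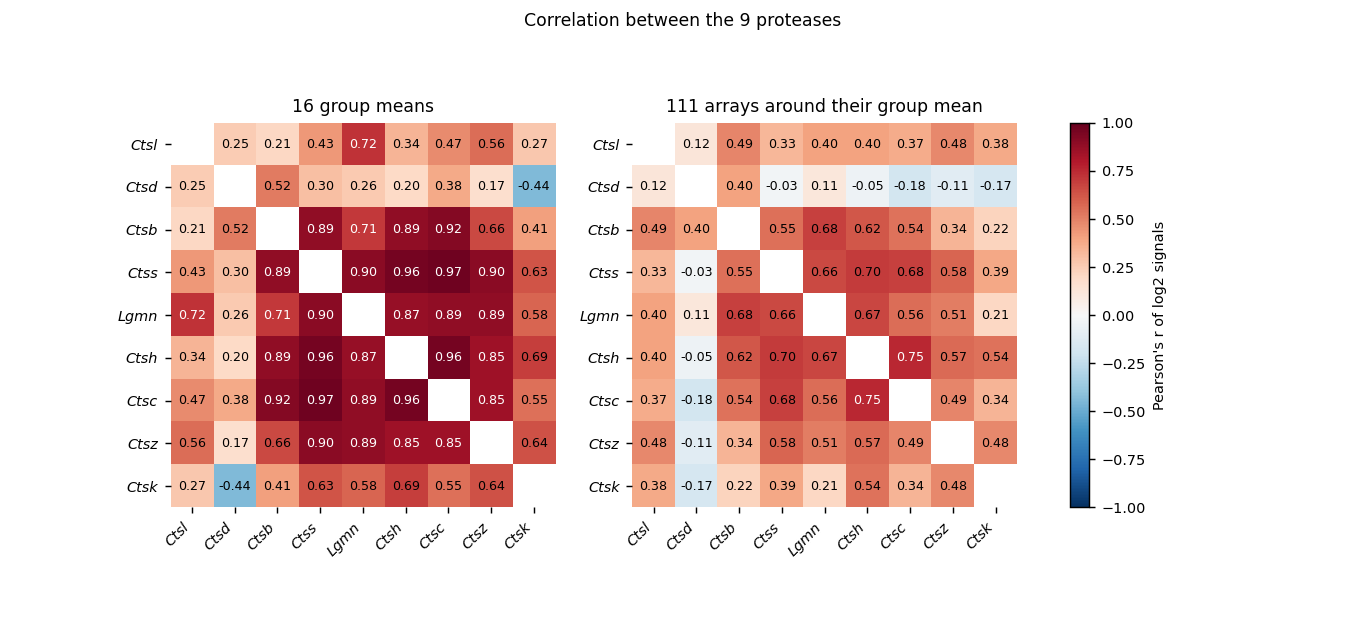
Correlation (Pearson's r) between member genes, over the 16 group means and over the 111 arrays around their group means, on log2 signals. Ctss, Ctsc and Ctsh have the highest values with each other (0.96 and 0.97 for Ctss), and Ctsd has the lowest (-0.44 with Ctsk).

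The members were also set against companion genes. Ctsl had r = 0.72 with Fbxo32 and 0.71 with Trim63 over group means (rho = 0.66 and 0.67), and 0.17 and 0.08 within groups. Ctss had 0.32 with Fbxo32, and 0.97 with Adgre1 (the F4/80 antigen), 0.96 with Csf1r (the CSF1 receptor) and 0.94 with Cd68, a lysosomal glycoprotein of macrophages. Lgmn had 0.92, 0.82 and 0.92 with these 3 genes, and 0.41 with Fbxo32. Ctsl had 0.42, 0.28 and 0.56 with them, and rho = 0.48, 0.41 and 0.66, so that by rank it stood as close to Cd68 as to the ligases. Within groups the r of Ctsl with Adgre1, Csf1r and Cd68 was 0.26, 0.21 and 0.32, above its values with the ligases. By rho these were 0.15, 0.14 and 0.19, against 0.27 with Fbxo32 and 0.13 with Trim63. With the fibre genes Acta1 and Ckm the r of Ctsl over group means was -0.55 and -0.52. This was not particular to Ctsl: Lgmn had -0.55 and -0.55, Ctsk -0.52 and -0.54, and Ctsz -0.76 and -0.77. Ctsd was on the other side, at 0.2 with both. Ctsd had r = 0.63 with Acta1 and 0.64 with Ckm within groups.

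The genes with the most similar group means were searched over all genes tested. For Ctss they were Mpeg1 (r = 0.993 over 16 groups), Ncf1 (0.992), Fermt3 (0.988), Sirpa (0.987) and Clec4a3 (0.987), all known from myeloid or other blood cells. For Ctsh they included Sirpa (0.986), Ptprc (0.984), the pan-leukocyte antigen CD45, and Csf1r (0.982), and for Ctsc they included Tyrobp (0.983), an adaptor of myeloid receptors. For Ctsk they were Mmp2 (0.983) and Mmp14 (0.977), matrix metalloproteases, followed by Mxra8 (0.97), Timp2 (0.968) and Ppic (0.966).

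The closest genes to Ctsl were Hnrnpll (0.946), a splicing factor, Stx12 (0.941), a syntaxin of endosomes, and Sin3b (0.937). For Lgmn they were Ywhaz (0.977), Tnfaip8 (0.977) and Litaf (0.975), for Ctsz Parp12 (0.985), H2-D1 (0.978), an MHC class I gene, and Tgfb1 (0.968), and for Ctsb Gpr160 (0.975, but rho = 0.5), Unc93b1 (0.966, rho = 0.682) and Fabp5 (0.96, rho = 0.668). Ctsd had no close match. Its first were Gal (0.858, but rho = 0.568), Txn1 (0.85, rho = 0.685), thioredoxin, and Gclm (0.829, rho = 0.809), a subunit of the enzyme that starts glutathione synthesis.

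Markers of other cell types moved with several of these genes, and their part in the results was not tested. Of 18 macrophage markers, 18, 18 and 11 were higher in right legs labelled control than in sham muscles at days 2, 7 and 14. Of all genes, 19.6%, 23.5% and 20.6% were higher there. The summed signal of the markers was 14570 to 19440 in right legs at day 2, against 1719 to 3122 in sham muscles. In casting, 11 of 18 were lower at day 2, against 13.3% of all genes. At day 7, 1 was higher, where 8.77% of all genes were called in either direction. At day 14, 15 were higher, against 7.17% of all genes. The summed signal of the markers at day 14 was 4358 to 9845 in cast legs and 2466 to 5124 in control legs. Cd68 fell by 0.62 at day 2 of casting and rose by 0.99 at day 14, the same signs as Lgmn and Ctss. In left legs labelled tenotomy the mean of these markers was -0.34, -0.23 and -0.44 from naive muscle at the 3 days, and in the control legs of cast mice it was 0.63, 0.58 and 0.48.

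**Figure D5:**
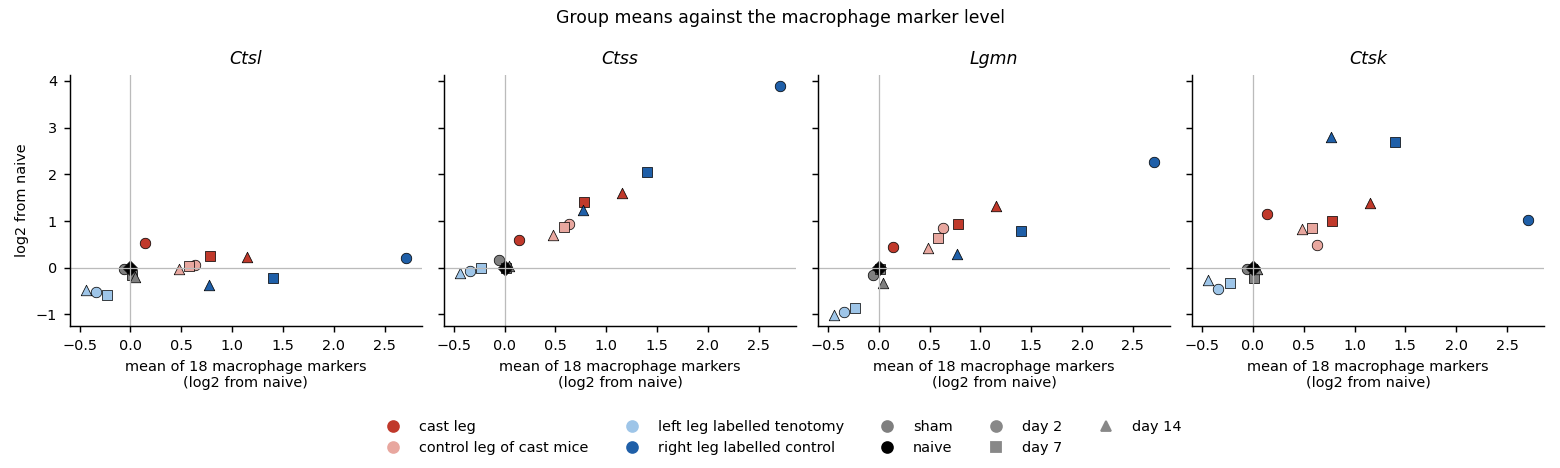
Group means of Ctsl, Ctss, Lgmn and Ctsk against the mean of 18 macrophage markers, both as log2 difference from naive muscle; each point is 1 of the 16 groups. Right legs labelled control at day 2 lie at 2.71 on the marker axis with Ctss at 3.89 and Lgmn at 2.27, cast legs at day 2 lie at 0.14 with the highest Ctsl (0.54), and right legs labelled control at day 7 lie at 1.4 with Ctsk at 2.69.

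The calls of Ctsk in right legs at days 7 and 14 were accompanied by fibroblast and tendon cell markers. At day 2 few of these markers were higher than in sham muscles. Of 8 fibroblast markers, 1, 7 and 6 were higher in right legs labelled control than in sham muscles at days 2, 7 and 14. Of all genes, 19.6%, 23.5% and 20.6% were higher there. In left legs 7, 8 and 7 of the 8 were lower than in right legs, against 20.8%, 18.3% and 13.5% of all genes. The mean of the fibroblast markers was 0.34, 1.03 and 0.80 from naive muscle in right legs. Of 5 tenocyte markers, 1, 4 and 4 were higher in right legs at these days, among them Thbs4 (2.03 and 1.55 at days 7 and 14). In casting, Ctsk was also called higher at days 2 and 14. There the fibroblast mean from naive muscle was -0.23 in cast and 0.05 in control legs at day 2, and 0.40 and 0.16 at day 14. The tenocyte mean was lower in cast legs at both days (0.23 and 0.45 at day 2, 0.56 and 0.71 at day 14). The part of these markers in the Ctsk values was not tested. Of the osteoclast markers, the summed signal was 121.8 to 281.4 in right legs at day 7, against 61.33 to 128 in sham muscles, and 62.04 to 113.7 in right legs at day 14, against 54.76 to 128.5. Of the 5 tested, Mmp9 was higher at day 7 (1.57) and lower at day 14 (-0.85), and Acp5, Calcr, Oscar and Dcstamp had no called value in these comparisons.

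With the deposited scaling, 10, 9 and 0 of 10 fast fibre markers were lower in right legs labelled control than in sham muscles at days 2, 7 and 14. Of all genes, 15.5%, 17.7% and 15.3% were lower there. Acta1 was at -0.76, -0.88 and -0.20. With quantile normalization Acta1 was at 0.05 and 0.00 at days 2 and 7, so that this direction depends on the scaling. In cast against control legs limma called 0 of the fast fibre markers at each day, with 5, 0 and 0 under an unadjusted p of 0.05. Of 6 neutrophil markers Mmp8 alone was called in right legs against sham muscles, at day 2 (1.45), and of 6 lymphocyte markers limma called 0 at the 3 days, with 1, 0 and 0 under an unadjusted p of 0.05.

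Other lysosomal genes were counted beside the cathepsins. The shares of all genes to read them against are 19.6%, 23.5% and 20.6% higher and 15.5%, 17.7% and 15.3% lower in right legs labelled control at days 2, 7 and 14. In casting they are 11% higher and 13.3% lower at day 2, 8.77% in either direction at day 7, and 7.17% higher and 6.04% lower at day 14. Among 30 tested hydrolases (glycosidases, lipases and others), 24, 22 and 21 were higher in right legs labelled control than in sham muscles at days 2, 7 and 14, and 1 was lower at each day. At day 2 these included Gusb (1.75), Gla (1.67), Man2b1 (1.63) and Scpep1 (1.61), and at day 14 Dnase2a (1.84), Naglu (1.00) and Arsa (0.91). In casting 3 were higher and 5 lower at day 2, 2 were higher at day 7, and 7 were higher and 1 lower at day 14, which at day 2 is close to the shares of all genes. At day 2 of casting Naglu rose (0.47) and Gusb fell (-0.45). In left legs labelled tenotomy 22, 21 and 20 of the 30 were lower than in right legs labelled control at the 3 days. Of all genes, 20.8%, 18.3% and 13.5% were lower in that comparison, which uses the same right legs.

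Subunits of the proton pump that acidifies the lysosome were called in both directions. Of 16 tested, 8 were higher and 3 lower in right legs labelled control at day 2, with Atp6v0d2 at 1.69 and Atp6v1a at 1.46. In casting 7 were higher and 1 lower at day 2, with Atp6v1h at 0.62, and 3 were higher and 1 lower at day 14. Of 10 membrane proteins, 4 were higher and 2 lower in right legs at each day, with Laptm5, a lysosomal membrane protein of blood cells, at 2.66, 1.5 and 1.17. Lamp2, of lysosomes in general, was at 0.63, 0.83 and 0.70 there, and at 0.27 in cast legs at day 2. The cholesterol transporter Npc1 rose by 0.71 in cast legs at day 2.

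Of 6 regulators of lysosomal genes, Tfe3 was higher in right legs labelled control by 0.87, 0.48 and 0.41 at days 2, 7 and 14 and Tfeb by 0.41, 0.34 and 0.29. In casting Mitf was the 1 called, at day 2 (0.34). Of 9 genes of the mannose 6-phosphate route that sorts enzymes to the lysosome, 3, 2 and 2 were higher in right legs, with the receptor M6pr at 0.83 at day 2, and none, 1 and 2 were lower, few genes to set against those shares. In casting 3 were lower at day 2 and 1 was higher at day 14.

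Cysteine protease inhibitors were few and moved apart. Serpinb1a, an intracellular inhibitor of neutrophil serine proteases that was listed with them, was higher in right legs labelled control by 4.13, 2.93 and 2.25, and Cstb, the intracellular cystatin B, by 1.92, 0.95 and 0.37. Cst3, the secreted cystatin C, was lower, at -0.41, -0.30 and -0.30. In cast legs Serpinb1a was at -0.94 at day 2 and 1.5 at day 14, and Cstb at 0.38 at day 14, all called.

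Among 6 further cathepsin genes, Ctsa, a serine carboxypeptidase, was higher in right legs labelled control by 1.31, 0.40 and 0.38, and Ctso by 0.36, 0.35 and 0.47. Ctsf was lower at day 2 (-0.46) and Ctse, an aspartic protease, at days 7 and 14 (-0.50 and -0.73). In cast legs Ctse (-0.41), Ctso (-0.27) and Ctsa (-0.20) fell at day 2, Ctsg, a serine protease of neutrophil granules, rose at day 7 (1.47), and Ctse fell at day 14 (-0.43). The summed signal of neutrophil markers at day 7 of casting was 129.9 to 6068 in cast legs and 80.54 to 1153 in control legs, and its part in the Ctsg value was not tested. The 8 placental cathepsin genes were below the filter, with highest signals of 7.5 to 26.98.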

How the data were processed

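Each array received biotin-labelled RNA of a single muscle, isolated by Trizol and then RNeasy, per the labels' protocols. The authors deposited intensities on a linear scale, made by MAS5 in GCOS per the submitters' processing notes; versions and scaling target are not given in the sources used here. Trimming 2% at both ends left array means of 99.955 to 99.965, so a common scaling preceded deposit. Intensities are therefore relative, and the number of arrays limits the precision.

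Of 45101 probe sets, 34958 listed 1 gene in the platform annotation and were used, with symbols updated for 34754; 932 listed several genes and 9211 none. Signals were analysed as log2(signal + 3.98), a constant equal to the 20th percentile over all arrays. Probe sets above the 40th percentile of the array (9.65 to 17.84) in 5 or more arrays were tested, and each gene kept the probe set with the highest mean. One limma fit (R 4.3.3, limma 3.58.1) held 16 group means, a random block for the animal (correlation 0.0964) and an intensity trend. It gave 23 comparisons, each adjusted over 16029 genes. For each gene the p-values rest on the spread of muscles around their group means, pooled over the 16 groups. In comparisons of legs this includes the spread between legs of the same mouse. The procedure was tested on simulated data.

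Legs were paired by the mouse number that the labels give. Deviations of legs of the same mouse correlated at 0.0657 on average in casting (25 pairs) and 0.0597 in tenotomy (16 pairs), against -0.0073 (202 pairs) and -0.0115 (83 pairs) for legs of different mice. The members, companion genes and lists, and the rule naming the most similar genes (the highest Pearson's r of 16 group means) and up to 4 called genes per list by size, were chosen with earlier results of these data known. Promoter sequences came from RefSeq. Alternatives changed the pseudocount, filter, normalization, probe set, block, array weights, groups in the fit and arrays included.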

Additional observations from a re-analysis of the deposited data

Results flagged for a closer look

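In 13 of 135 sets of a gene and a group of 4 to 10 muscles, the most extreme muscle lay farther from the others than Dixon's 95% critical value allows; chance gives about 1 in 20. The cast leg replicate 10 at day 2 was the highest of its group for 5 genes, Ctss (456.4), Ctsz (736.3), Ctsc (863.6), Ctsh (345.8) and Lgmn (636.3). The cast leg replicate 1 at day 7 was the highest for Ctsb (3008), Ctsc (721.1) and Lgmn (561.3). Single muscles stood out among control legs of cast mice for Ctsl at day 2 (1956, replicate 4) and for Ctsd at day 7 (3343, replicate 4) and day 14 (3930, replicate 2). Among right legs labelled control, replicate 4 was lowest for Ctsh at day 2 (574.9) and replicate 2 lowest for Ctss at day 7 (289.4).

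The right minus left difference was larger in tenotomy than in cast mice by the test of that difference for 8 genes at day 2: Ctss (4.31), Lgmn (3.61), Ctsh (3.22), Ctsc (2.09), Ctsz (1.71), Ctsb (1.63), Ctsk (0.83) and Ctsd (0.54). At day 7 these were Ctsk (2.87), Ctsh (1.61), Ctss (1.54), Lgmn (1.34), Ctsc (0.86), Ctsb (0.66) and Ctsz (0.57), and at day 14 Ctsk alone (2.51).

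Leg differences also changed between day 2 and day 14. In casting (cast minus control leg) the change passed for Lgmn (1.29), Ctss (1.24), Ctsh (0.94), Ctsc (0.59) and Ctsb (0.30). In the tenotomy mice (left minus right leg) it passed for Ctss (2.62), Lgmn (1.93), Ctsc (1.58), Ctsh (1.56), Ctsb (1.23), Ctsz (1.16), Ctsd (0.95), Ctsl (0.62) and Ctsk (-1.59).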

How the results depend on the processing

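Over the 9 members, 2163 of 2232 combinations of a result and a setting kept their side of the threshold. Called results among them kept their direction, and 25 uncalled ones changed sign. In 39 a call was lost, in 29 one was gained and in 1 an uncalled difference passed with the opposite sign. Counts of members called that moved by over 1.5 times were as follows. In casting, day 2 had 5 (2 higher, 3 lower) without both legs of the mouse whose cast leg stood apart (a setting chosen after seeing the data), day 7 had 2 with array weights and 1 with only the groups compared, day 14 had 4 as the mean of probe sets, and the change from day 2 to day 14 had 3 with only the groups compared. Control legs of cast mice against naive muscles had 5 at day 2 with quantile normalization and 5 at day 14 with array weights or with only the groups compared. Left legs labelled tenotomy against sham muscles had 2 and 3 at days 2 and 14 with only the groups compared, and 1 at day 7 as the mean of probe sets. The right minus left difference parted between the models in 2 members at day 14 with array weights, with only the groups compared and with the stricter filter.

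With the animal as a fixed replicate block, which uses the pairing of the legs, left minus right at day 14 had 5 calls (1 higher, 4 lower), and the losses were Ctsb, Ctsc and Ctsz. This block changed no other count by over 1.5 times, nor did leaving the block out. Leaving out 1 muscle at a time gave 9 to 9 calls for left minus right at day 2, 5 to 8 at day 14 (5 without right leg replicate 3 or 4), and 9 to 9 for its change between these days. Right legs against sham muscles gave 7 to 8 at day 2 and 5 to 7 at day 14, left legs against sham muscles 0 to 2 at both days, the models 7 to 8 at day 2 and 1 to 2 at day 14, and sham against naive muscles 0 to 0 at day 2. For left legs against sham muscles, day 2 had 0 without sham replicate 2 and 2 without left leg replicate 1, and day 14 had 0 without left leg replicate 1 and 2 without replicate 2. The models at day 14 had 2 without right leg replicate 1, 2 or 5.

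With quantile normalization Ctsd in control legs of cast mice against naive muscles at day 14 turned to 0.25, and Acta1 in right legs against sham muscles was 0.05 and 0.00 at days 2 and 7. Other probe sets of a gene kept the result in 181 of 230 cases, lost the call in 27 and gained one in 8. In the other 14 cases they turned. For Ctsb these were 0.60 and 0.48 in control legs against naive muscles at days 14 and 7, -0.29, -0.05 and -0.03 in right legs against sham muscles at day 14, -0.10 at day 7, and 0.07 in left minus right at day 14. A dim Ctsc probe set gave -0.51 in right legs against sham muscles at day 2 and -0.39 between the models at day 7. The dim Ctsl probe set gave -0.24 in casting at day 14, 0.12 and 0.09 in left minus right at days 2 and 7, and 0.04 and 0.16 in left legs against sham muscles at days 2 and 7. The cause of these changes was not tested. The companion and marker lists were counted with the deposited scaling only. MAS5 signals are relative, dim probe sets lie near background, and 3 sham muscles at day 2 limit that day's comparisons.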
